A study of Mus musculus with 6 samples.

Results

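The 10 genes described here encode the PPAR, RXR and C/EBP transcription factors that carry fat cell differentiation: Pparg, Ppara and Ppard, then Rxra, Rxrb and Rxrg, then Cebpa, Cebpb, Cebpd and Cebpg. They were chosen by name, each as the Ensembl gene identifier that maps to its symbol. No rule on measured values was used, but earlier results of these data were known when they were chosen. All 10 were among the 54532 genes of the gene tables, which hold replicates 1 and 2 of each group. The tables of replicate 3, in which many gene identifiers occur more than once, listed 9 of them among 21950 gene identifiers, without Cebpd.

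In a differentiating preadipocyte, C/EBPβ and C/EBPδ are made early and help to switch on PPARγ and C/EBPα, which then maintain each other and turn on the genes of lipid storage. PPAR proteins bind DNA as heterodimers with an RXR, so the RXR genes supply the shared partner of all PPARs and of several other nuclear receptors. C/EBP proteins bind as dimers of each other through a leucine zipper, and C/EBPγ lacks the activation domain of its relatives.

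The cells were 3T3-L1, an established clonal line of mouse fibroblasts that turn into adipocytes in culture, with the genotype given as WT. Both groups had been induced with insulin in medium with 10% serum, kept with 0.1 µM insulin and harvested on day 8, and 1.3 µg of RNA entered a directional library kit. The 3 control libraries came from cells labelled as controls and the 3 CIH libraries from adipocytes under chronic intermittent hypoxia, that is, repeated spells of low oxygen. Neither the oxygen levels nor the length of the cycle is stated in the labels. No label names separate cultures, and every p-value below therefore rests on differences between libraries that could be technical repeats.

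Values are FPKM, fragment counts scaled to gene length and to library size, so levels of different genes within a library can be set side by side. The files name no unit. In replicates 1 and 2 it was read from the values, which for most genes checked come out near whole fragment counts once multiplied by exon length. Rxrb was an exception, at 2158.4 fragments in control 1 and 2792.3 in control 2. For replicate 3 the unit is an assumption, so levels there are set against each other only within that pair or as shares and ratios. Replicates 1 and 2 held 25.7 to 28.0 M counted fragments per library by those steps (M, mega), and the depth of replicate 3 is unknown. Replicate 3 stood apart from the others: the correlation of log2(FPKM + 1) across 10976 genes was 0.995 between controls 1 and 2 and 0.997 between CIH 1 and 2, but 0.802 between controls 1 and 3 and 0.616 between CIH 1 and 3. Mitochondrial genes took 11.2% to 16.3% of the summed FPKM in replicates 1 and 2, 43.7% in control 3 and 22.4% in CIH 3. The 12 white adipocyte markers summed to 9628 and 10054 FPKM in controls 1 and 2, 9480 and 8462 in CIH 1 and 2, and 33100.0 in control 3 against 751 in CIH 3. The 12 preadipocyte or fibroblast markers summed to 377 and 397 FPKM in controls 1 and 2, 587 and 585 in CIH 1 and 2, and 864 in control 3 against 5777 in CIH 3. Within the replicate 3 pair, the adipocyte sum was thus far lower and the fibroblast sum far higher in CIH. The 10 genes and the gene lists below are compared in replicates 1 and 2 and, separately, in the replicate 3 pair where it lists them. That pair has 1 library per group and so no test of its own. Genes named from the lists are given for replicates 1 and 2, and only some of them for replicate 3 as well. The adipocyte identity of replicates 1 and 2 showed in Adipoq, at 654 to 821 FPKM, and Plin1, at 292 to 321 FPKM, although Lep, another white adipocyte marker, was at most 0.0533 FPKM.

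In replicates 1 and 2, Pparg, Cebpa, Cebpd and Cebpg were lower under CIH, and none of the 10 genes was higher. The drop was 1.91-fold for Pparg and 1.95-fold for Cebpd, and smaller, 1.28-fold and 1.31-fold, for Cebpa and Cebpg. Of the 7 genes in the fit of 10976 genes, 3 fell and 4 did not pass (limma on log2(FPKM + 1), adjusted p under 0.05). In that fit 39.1% of all genes passed, made up of 20.9% that fell and 18.2% that rose. Cebpd was tested among 10981 genes filtered on these 4 libraries, of which 41.9% passed and 21.7% fell. Ppara and Rxrg, under the minimum of 1 FPKM, were tested among 24416 unfiltered genes, of which 10.4% passed. The median change of the 7 genes was -0.35 on the log2 scale, against -0.01 over all genes of the fit. Both CIH libraries lay under both controls for 8 of the 10 genes, and for 6 of the 7 tested ones, an arrangement seen in 38.9% of all tested genes. In the bulk RNA of such cultures, fewer adipocytes and less of a transcript per adipocyte cannot be told apart.

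**Figure D1:**
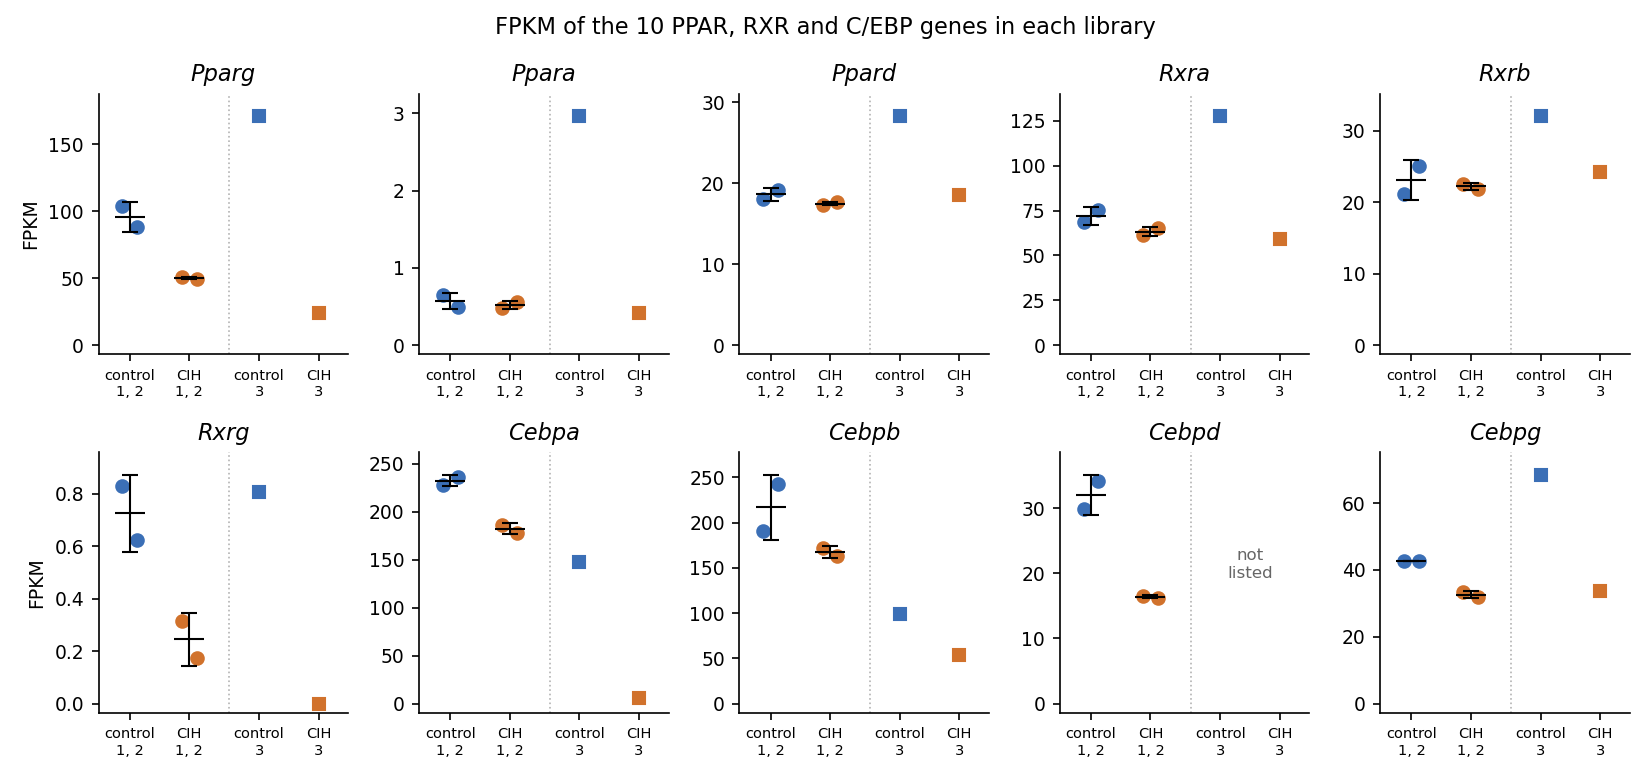
FPKM of each gene by library, with a separate linear axis from 0 for each gene (blue, control; orange, CIH; circles, replicates 1 and 2 with mean and SD, n = 2; squares, replicate 3, from tables made separately). Both CIH circles lie under both control circles for 8 genes and overlap the controls for Ppara and Rxrb, and all 9 listed genes are lower in CIH 3 than in control 3 as deposited, 7 of them also with scaling by summed FPKM.

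Pparg, the nuclear receptor without which fat cells do not form, was at 103.7 and 88.0 FPKM in controls 1 and 2 and at 50.9 and 49.6 in CIH 1 and 2. Both CIH libraries were well under both controls, and they differed from each other less than the controls did. The mean went from 95.9 ± 11.1 (SD, n = 2) to 50.3 ± 0.896 FPKM, which rested on 3931 to 7881 fragments per library. Pparg fell by 0.91 on the log2 scale (SE 0.0986, limma adjusted p = 0.00383), with a 95% confidence interval of -1.17 to -0.66. Only 3.09% of the 10976 genes changed as far downward or further. The call held on leaving out each of the 4 libraries in turn, with adjusted p from 0.0037 to 0.0261. In the replicate 3 pair Pparg was at 170.7 FPKM in the control and 23.9 in CIH, 7.15-fold lower.

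The gene lies on chromosome 6 from 115360951 to 115490399 on the plus strand (GRCm38, GENCODE release M21), and its annotated coding transcripts begin at separate promoters. The transcript that starts at 115422066 codes for the 505 residues of PPARγ2, the form known from fat cells. Those that start at 115360951 and 115362292, near the gene's 5′ end, code for the 475 residues of PPARγ1, and a shorter coding transcript of 96 codons starts at 115362349. The gene tables give a single value for all of them, so which start the drop belongs to was not measured in replicates 1 and 2. The 250 bases upstream of starts 1 and 3 in RefSeq (GRCm38.p6, plus strand) are shown because these promoters differ in composition: over the window of 300 bases around each start, GC content was 80.3% at start 1 and 40.3% at start 3. Capitals mark matches to TTGCNNAA, a core of C/EBP binding sites, on either strand.
Pparg start 1, chr6:115360894-115361143: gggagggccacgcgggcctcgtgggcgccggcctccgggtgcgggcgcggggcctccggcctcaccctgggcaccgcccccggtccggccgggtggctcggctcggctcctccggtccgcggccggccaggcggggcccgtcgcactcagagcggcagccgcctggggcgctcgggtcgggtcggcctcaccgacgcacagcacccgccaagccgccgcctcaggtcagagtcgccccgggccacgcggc
Pparg start 3, chr6:115421816-115422065: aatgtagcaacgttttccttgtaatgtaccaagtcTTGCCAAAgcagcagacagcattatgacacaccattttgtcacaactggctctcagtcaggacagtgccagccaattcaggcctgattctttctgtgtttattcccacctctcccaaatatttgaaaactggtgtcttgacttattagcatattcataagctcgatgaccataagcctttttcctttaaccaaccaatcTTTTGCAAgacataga
Start 3, that of PPARγ2, had the matches TTGCCAAA and TTTTGCAA, beginning 215 and 16 bases upstream of it, and start 1 had none. Such a match was present in 2 of the 14 RefSeq promoter windows of 9 of the 10 genes, the other at Rxrg, and in 10.8% of all 32841 mouse windows of the same length. A window that lacks these letters says nothing about binding, and a match is not a measured site.

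Ppard, which encodes the PPAR found in nearly all tissues, was at 18.1 and 19.1 FPKM in controls 1 and 2 and at 17.3 and 17.6 in CIH 1 and 2. The groups did not overlap but lay close together. The difference was -0.09 on the log2 scale, with a 95% confidence interval of -0.26 to 0.09 (limma adjusted p = 0.363), and so reached down to 0.834-fold of the control level on that scale. In replicate 3 Ppard was at 28.3 FPKM in the control and 18.5 in CIH, 1.52-fold lower as deposited but not with scaling by summed FPKM (log2 change 0.02).

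Ppara, the PPAR of fatty acid oxidation in liver, was barely detected in replicates 1 and 2. It was at 0.648 and 0.494 FPKM in the controls and 0.478 and 0.561 in CIH, on 48 to 64 fragments per library, and the groups overlapped. At this depth no difference was detectable (log2 difference -0.05, 95% confidence interval -0.29 to 0.20, limma adjusted p = 0.773 among 24416 genes). In replicate 3 Ppara was at 2.96 FPKM in the control and 0.417 in CIH, 7.11-fold lower.

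Within the PPAR family, Pparg therefore made up less of the summed FPKM under CIH. Its share was 84.7% and 81.8% in controls 1 and 2 and 74.1% and 73.2% in CIH 1 and 2. Ppard held more, with 14.8% and 17.8% in the controls and 25.2% and 26.0% in CIH, although its own FPKM did not pass the test. In replicate 3 the Pparg share was 84.5% in the control, close to the other controls although the tables were made separately, and 55.7% in CIH. The PPAR sum itself was 122 and 108 FPKM in controls 1 and 2 against 68.7 and 67.8 in CIH 1 and 2.

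Rxra, the main RXR of adipocytes here, was at 68.4 and 75.5 FPKM in controls 1 and 2 and at 61.6 and 65.1 in CIH 1 and 2. The CIH libraries were lower without overlap, by a margin smaller than the gap between the controls. The difference of -0.18 on the log2 scale did not pass (95% confidence interval -0.39 to 0.03, limma adjusted p = 0.137). It passed when libraries were scaled by their summed FPKM, at -0.31 and an adjusted p of 0.0430. That scaling moved the share of downward calls among all genes from 53.5% to 69.7%. Replicate 3 gave 127.5 FPKM in the control and 58.9 in CIH, 2.16-fold lower.

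Rxrb, a broadly expressed partner of the same receptors, was at 21.1 and 25.1 FPKM in controls 1 and 2 and at 22.5 and 21.9 in CIH 1 and 2. The groups overlapped, and the log2 difference of -0.05 (95% confidence interval -0.31 to 0.21, limma adjusted p = 0.721) turned to 0.07 without control 2. Replicate 3 showed the smallest difference of the 9 listed genes on the log2(FPKM + 1) scale, from 32.0 to 24.2 FPKM, 1.32-fold lower as deposited but higher with scaling by summed FPKM (log2 change 0.22).

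Rxrg, an RXR best known from muscle and brain, was at 0.829 and 0.622 FPKM in controls 1 and 2 and at 0.316 and 0.175 in CIH 1 and 2. These values came from 49 and 40 fragments against 19 and 11, and the groups did not overlap. The mean was 2.96-fold lower, but among all 24416 genes the change did not pass (limma unadjusted p = 0.0113, adjusted p = 0.074). It was at 0.805 FPKM in control 3 and listed at 0 in CIH 3.

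The make-up of the RXR family differed little between the groups of replicates 1 and 2. Rxra held 75.7% and 74.6% of the RXR sum in controls 1 and 2 and 72.9% and 74.7% in CIH 1 and 2, with overlap. Against Pparg, its usual partner in fat cells, Rxra was less abundant in the controls and more abundant under CIH: the ratio of their FPKM was 0.66 and 0.858 in controls 1 and 2 and 1.21 and 1.31 in CIH 1 and 2. It was 0.747 in control 3 and 2.47 in CIH 3, so all 3 CIH libraries were above 1 and all 3 controls under it.

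**Figure D2:**
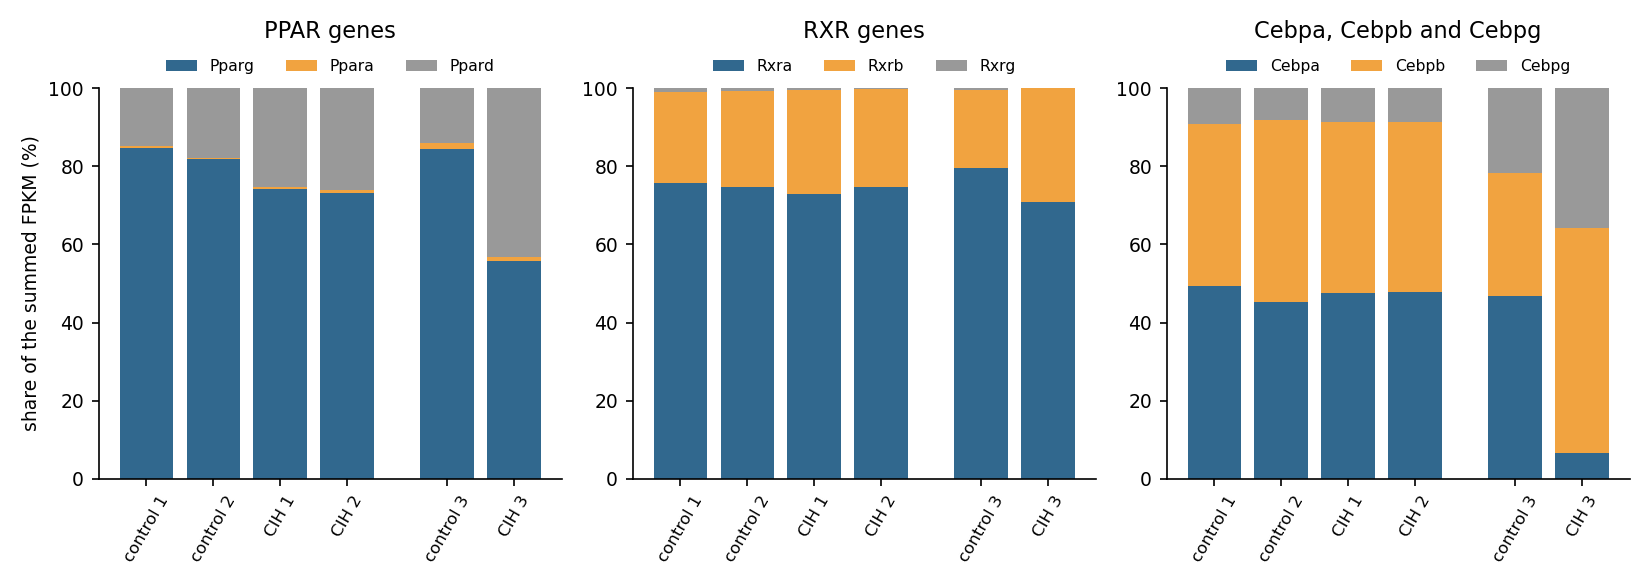
Share of each gene in the summed FPKM of its family in each library (bars to 100%, 1 bar per library; Cebpd is left out of the right panel because replicate 3 does not list it). Pparg makes up 81.8% to 84.7% of the PPAR sum in the controls and 55.7% to 74.1% under CIH, and Cebpa drops to 6.57% in CIH 3 alone.

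Cebpa, which sustains Pparg in the mature fat cell, had the highest mean level of the 10 genes in replicates 1 and 2. It was at 228.2 and 236.6 FPKM in controls 1 and 2 and at 186.2 and 177.9 in CIH 1 and 2. The groups were separated by more than the spread within either. The mean went from 232 ± 5.91 to 182 ± 5.84 FPKM (SD, n = 2), and Cebpa fell by 0.35 on the log2 scale (SE 0.082, limma adjusted p = 0.0275). This limma call was lost with a replicate block (adjusted p = 0.0771), on leaving out any of the 4 libraries (0.0834 to 0.115), and among all 24416 unfiltered genes of the gene tables (0.0781). It was kept narrowly among the 17286 unfiltered genes of all 6 tables (0.0497), while the change itself stayed between -0.32 and -0.38 over these fits of replicates 1 and 2. In the replicate 3 pair Cebpa went from 147.7 FPKM in the control to 6.18 in CIH, 23.9-fold lower, a change that only 0.383% of the 10976 genes matched downward.

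Cebpa lies on chromosome 7 from 35119293 to 35121928 on the plus strand (GRCm38, GENCODE release M21). The 250 bases upstream of its RefSeq start (GRCm38.p6) are given with the match to TATAAA, the letters of a TATA box, in capitals.
Cebpa, chr7:35119043-35119292: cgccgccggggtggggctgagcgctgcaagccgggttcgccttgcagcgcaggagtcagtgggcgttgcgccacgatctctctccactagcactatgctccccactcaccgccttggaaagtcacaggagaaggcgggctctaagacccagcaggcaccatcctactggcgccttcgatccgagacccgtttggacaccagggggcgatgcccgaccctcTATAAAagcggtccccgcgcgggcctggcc
The match began 30 bases upstream of the start, and TATAAA on either strand was present in 13.6% of all 32841 windows.

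Cebpb, an early factor of differentiation that also answers to stress and inflammation, was at 191.3 and 242.2 FPKM in controls 1 and 2 and at 172.0 and 163.1 in CIH 1 and 2. Both CIH libraries were lower, but the gap between the controls was larger than the gap between the groups. The difference of -0.36 on the log2 scale was as large as that of Cebpa but did not pass (SE 0.134, limma adjusted p = 0.089). It passed without control 1, at -0.53 and an adjusted p of 0.0404, and with scaling by summed FPKM, at -0.49 and 0.0305. Replicate 3 gave 98.9 FPKM in the control and 54.1 in CIH, 1.83-fold lower. Of the exon bases of Cebpb, 20.7% are shared with Tmem189 on the opposite strand, and whether counting used the strand is not stated.

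Cebpd, the other early C/EBP, was at 29.8 and 34.2 FPKM in controls 1 and 2 and at 16.6 and 16.3 in CIH 1 and 2. The CIH values were near each other and well under the controls, on 1623 and 1672 fragments against 2875 and 3584. Cebpd fell by 0.92 on the log2 scale (SE 0.0958, limma adjusted p = 0.000507 among 10981 genes), with a 95% confidence interval of -1.14 to -0.69. The call held on leaving out each of the 4 libraries. Of its exon bases, 15.0% are shared with Spidr on the opposite strand, which was itself at 5.89 and 4.90 FPKM in controls 1 and 2 and at 2.65 and 3.17 in CIH 1 and 2. The part of Spidr in the result was not tested.

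Cebpg, whose product pairs with other C/EBP and ATF proteins, was at 42.7 and 42.6 FPKM in controls 1 and 2 and at 33.4 and 31.8 in CIH 1 and 2. The controls were nearly equal and both CIH libraries lower. Cebpg fell by 0.38 on the log2 scale (SE 0.065, limma adjusted p = 0.0121), a call lost without CIH 1 (adjusted p = 0.0530) or without CIH 2 (0.0660). In replicate 3 it went from 68.4 FPKM in the control to 33.7 in CIH, 2.03-fold lower.

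The balance of Cebpa and Cebpb was similar in the groups of replicates 1 and 2. The ratio of Cebpa to Cebpb was 1.19 and 0.977 in controls 1 and 2 and 1.08 and 1.09 in CIH 1 and 2, with the CIH values between the controls. In the replicate 3 pair it was 1.49 in the control and 0.114 in CIH. Cebpa held 46.9% of the sum of Cebpa, Cebpb and Cebpg in control 3, as in controls 1 and 2 with 49.4% and 45.4%, but 6.57% in CIH 3, where Cebpb held 57.6%.

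In order of mean level, controls 1 and 2 ran Cebpa, Cebpb, Pparg, Rxra, Cebpg, Cebpd, Rxrb, Ppard, Rxrg and Ppara. Of the neighbours in this order, Cebpa and Cebpb overlapped, and so did Rxrg and Ppara. CIH 1 and 2 ran Cebpa, Cebpb, Rxra, Pparg, Cebpg, Rxrb, Ppard, Cebpd, Ppara and Rxrg, with no overlap of neighbours. Rxra had passed Pparg, and Rxrb and Ppard had passed Cebpd. Control 3 was led by Pparg, Cebpa and Rxra, and CIH 3 by Rxra, Cebpb and Cebpg, with Pparg the fifth and Cebpa the seventh of 9.

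As deposited, all 9 listed genes were lower in CIH 3 than in control 3, where 38.0% of all 10976 tested genes were lower. By at least 2-fold on the log2(FPKM + 1) scale, 4 of the 9 were lower, namely Pparg, Ppara, Rxra and Cebpa, and 3 of these are among the 7 tested genes, against 11.8% of all tested genes. With scaling by summed FPKM, mitochondrial genes included, 7 of the 9 were lower, and Ppard (0.02) and Rxrb (0.22) turned slightly higher. The direction of all 9 held without the mitochondrial genes in that sum, with the median of ratios and with the upper quartile, and the number at least 2-fold lower lay between 3 and 6 over these scalings. The median change of the 7 tested genes was -0.998 on the log2 scale, against 0.26 over all tested genes, and the latter was 0.83 with scaling by summed FPKM, 0.41 with the sum taken without mitochondrial genes and 0.00 with the median of ratios. As given above, the adipocyte marker sum and the mitochondrial share were lower in CIH 3 than in control 3, and the fibroblast marker sum was higher. Their part in the result was not tested.

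**Figure D3:**
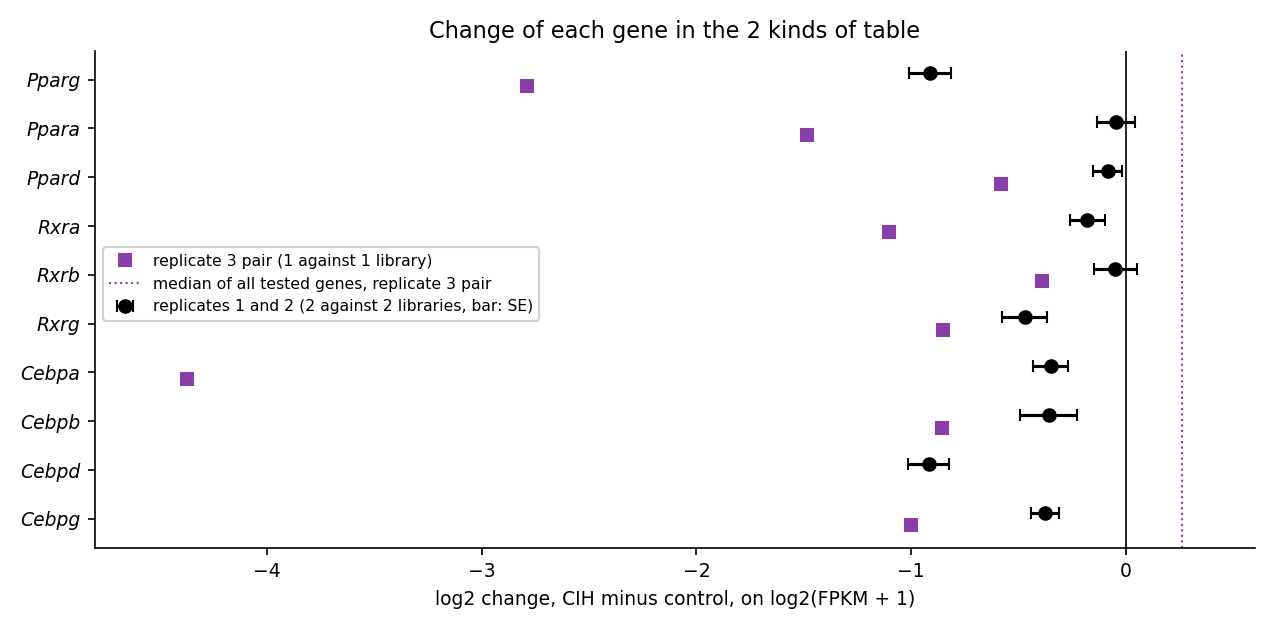
Change of each gene on the log2(FPKM + 1) scale, CIH minus control (black circles, replicates 1 and 2 with the SE of the limma fit; purple squares, replicate 3 pair, 1 library per group and no error; dotted line, median of all tested genes in that pair, 0.26). Values are as deposited, without the scalings named in the text. Every square lies left of its circle, by most for Cebpa (-4.37 against -0.35) and Pparg (-2.79 against -0.91).

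The change in the replicate 3 pair was set against that in replicates 1 and 2 with the limma interaction of group and kind of table. Its spread comes from replicates 1 and 2 alone, so it holds the gap against the variation of those 4 libraries and cannot show a difference beyond the pair's own variation, which was not measured. On that footing the pair was more negative, at an adjusted p under 0.05, for 5 of the 7 genes, against 22.1% of all tested genes, and 43.9% of all genes lay the other way. The gap on the log2 scale was -4.02 for Cebpa, -1.87 for Pparg, -0.92 for Rxra, -0.62 for Cebpg and -0.50 for Ppard. It was -0.50 for Cebpb and -0.34 for Rxrb, which did not pass. Scaling moved these values: among all genes called in the interaction, 33.5% were negative as deposited, 12.5% with scaling by summed FPKM and 52.6% with the median of ratios. Of the 7, Pparg and Cebpa passed as more negative under all 4 scalings, as did 9.99% of all tested genes. With scaling by summed FPKM, which includes the mitochondrial genes, the sign turned for Ppard (0.23), Rxrb (0.39), Cebpb (0.25) and Cebpg (0.13). In a fit of all 6 libraries that also modelled the kind of table, none of the 7 passed (limma adjusted p from 0.163 to 0.55, 3 of 7 under an unadjusted p of 0.05), where 0.574% of all genes did.

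The replicate 3 tables list many gene identifiers more than once, and the entries of a gene carry only that identifier. The identifiers run in the same order in both tables, and the entries of a gene are set side by side here by their position. That the same position holds the same transcript in both tables is an assumption, and which transcript it would be is not given. For Pparg, the largest of 5 entries in control 3 went from 80.7 to 1.97 FPKM, 40.9-fold lower, and from 47.3% to 8.25% of the gene. Another 3 went from 47.8 to 7.29, from 23.8 to 6.29 and from 17.8 to 6.71 FPKM, and the smallest from 0.565 to 1.62. By position, the entries of this gene thus differed unequally. For Rxra, the main entry went from 98.7 to 53.6 FPKM, 1.84-fold lower, and the next from 23.5 to 3.19, 7.38-fold lower. The Cebpa entries went from 137 to 6.18 FPKM and from 10.8 to 0. Rxrb was even, with 4 entries 1.06-fold to 1.54-fold lower and the last at 0 in both libraries. Of the Cebpg entries, 57.9 FPKM became 24.1 and 10.5 became 9.67, and of the Ppard entries 26.8 became 16.6 and 1.47 became 1.94.

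**Figure D4:**
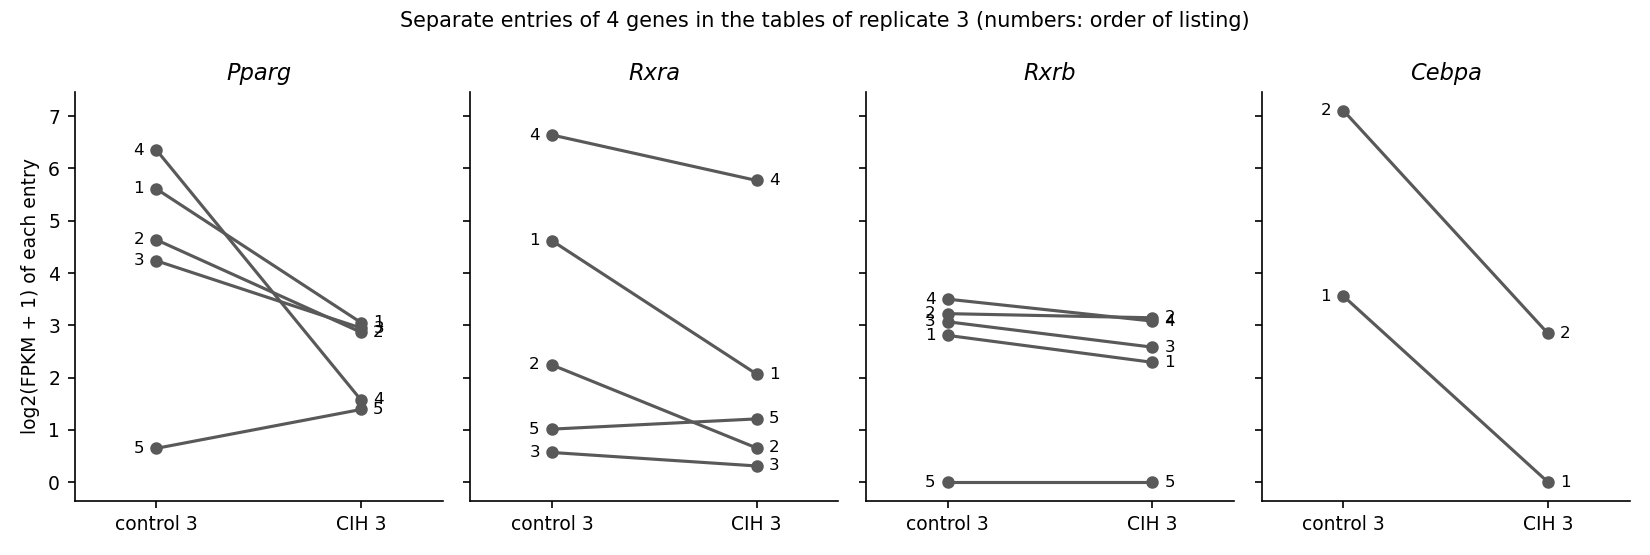
Level of each entry of Pparg, Rxra, Rxrb and Cebpa in control 3 and CIH 3 as log2(FPKM + 1), with a line joining the entries at the same position, assumed to match, and their number in the order of listing (1 library per group). Entry 4 of Pparg, the largest in control 3, drops from 80.7 to 1.97 FPKM, while the lines of Rxrb are almost level.

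Of 27 tested target genes of PPARγ in fat cells, 8 fell, 4 rose and 15 did not pass in replicates 1 and 2, where 39.1% of all tested genes passed, and their median change was -0.06 against -0.01 over all genes. Cidea, a lipid droplet protein, fell from 4.61 and 5.31 FPKM to 0.0657 and 0.0626 (log2 change -2.48, limma adjusted p = 0.000392). Hcar2, a receptor that restrains lipolysis, fell from 21.4 and 18.2 FPKM to 8.62 and 6.40 (-1.30, 0.00483). Olr1, a receptor for oxidized lipoprotein, rose from 26.6 and 22.0 FPKM to 118 and 114 (2.22, 0.000737), and Gk, glycerol kinase, rose from 8.92 and 8.07 to 38.9 and 38.5 (2.06, 0.000516). The most abundant targets, Fabp4 and Cidec, did not pass: Fabp4, a fatty acid carrier, was at 1698 and 1992 FPKM in the controls and 2196 and 1876 in CIH, and Cidec, another droplet protein, at 2447 and 2533 against 2541 and 2300.1. In the replicate 3 pair 24 of the 27 were at least 2-fold lower in CIH and none was as much higher, with a median of -4.08, and Cidec went from 4909 to 35.2 FPKM. Olr1 and Gk, which rose in replicates 1 and 2, were lower in that pair, from 50.2 to 0.506 FPKM and from 18.5 to 4.16. Among all tested genes 11.8% were at least 2-fold lower in that pair and 21.8% as much higher, with a median of 0.26.

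PPAR targets of fatty acid oxidation went both ways in replicates 1 and 2: of 20 tested, 4 fell, 8 rose and 8 did not pass, with a median of 0.21. The shares over all tested genes were 20.9% that fell and 18.2% that rose. Cpt1a, which lets fatty acids into mitochondria, rose from 4.07 and 4.15 FPKM to 16.3 and 17.7 (log2 change 1.81, limma adjusted p = 0.00067). Fgf21, a secreted metabolic hormone, rose from 0.654 and 0.451 FPKM to 4.54 and 3.07. Acaa1b, a peroxisomal thiolase, fell from 13.8 and 14.3 FPKM to 3.41 and 3.36 (-1.78, 0.000609), and Pdk4, which slows glucose oxidation, fell from 26.8 and 23.7 to 10.8 and 11.2. Angptl4, an inhibitor of lipoprotein lipase, was at 233 and 266 FPKM in the controls and 336 and 308 in CIH without passing (limma adjusted p = 0.0529). Acadvl, an acyl-CoA dehydrogenase, was at 169 and 183 FPKM against 216 and 191 and did not pass either. In replicate 3, 16 of the 20 were at least 2-fold lower and 2 as much higher, against 11.8% and 21.8% of all tested genes. Cpt1a was among those higher, from 14.3 to 33.5 FPKM. Fgf21, which rose in replicates 1 and 2, was at 0.859 FPKM in control 3 and 0.187 in CIH 3.

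Most C/EBP target genes fell: of 17 tested, 12 fell, 4 rose and 1 did not pass, with a median of -0.63. Over all tested genes 20.9% fell and 18.2% rose. Cfd, the adipokine adipsin, fell from 1013 and 1214 FPKM to 113 and 87.4 (log2 change -3.47, limma adjusted p = 0.000746). Hp, haptoglobin, fell from 774 and 840.0 FPKM to 103 and 91.5 (-3.04, 0.000502), and Retn, resistin, from 183 and 203 to 25.4 and 21.3 (-3.00, 0.000516). Apoc3, an apolipoprotein, fell from 17.8 and 23.0 FPKM to 2.38 and 1.58. Trib1, a pseudokinase that promotes breakdown of C/EBPα, was the gene that did not pass, at 3.79 and 4.09 FPKM against 3.62 and 4.01. In replicate 3, 12 of the 17 were at least 2-fold lower and 4 as much higher, against 11.8% and 21.8% of all tested genes. All 12 white adipocyte markers belong to the PPARγ target list (8) or the C/EBP target list (4), so these lists are not independent. Of these markers Cfd, Retn, Lipe and Slc2a4 fell in replicates 1 and 2, Cd36 rose, 6 did not pass and Lep was not tested. In the replicate 3 pair all 11 tested markers were at least 2-fold lower in CIH, Cd36 included.

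Dimer partners and relatives of the C/EBP proteins went both ways: of 8 tested, 2 fell, 4 rose and 2 did not pass, with a median of 0.36. All tested genes together had 20.9% that fell and 18.2% that rose. Ddit3 (CHOP), which dimerizes with C/EBP proteins and keeps them from their usual sites, rose from 28.2 and 26.9 FPKM to 43.9 and 41.0 (log2 change 0.61, limma adjusted p = 0.00471), and was at 55.9 FPKM in control 3 against 179.6 in CIH 3. Fos rose from 3.62 and 3.39 FPKM to 11.6 and 12.1, and its AP-1 partner Jun fell from 28.7 and 33.6 to 16.7 and 17.3. Nfil3, a repressor of the same leucine zipper class, fell from 22.3 and 22.7 FPKM to 13.5 and 13.3. Atf4, the stress factor that binds with C/EBPγ, was at 111 and 120 FPKM against 137 and 127 and did not pass (limma adjusted p = 0.131). Tef, a relative of the PAR class, did not pass either, at 12.4 and 12.0 FPKM against 12.0 and 11.9. In replicate 3, none of the 8 was at least 2-fold lower and 2 were as much higher, against 11.8% and 21.8% of all tested genes. The median of the 8 there was 0.33. Jun went the other way in that pair than in replicates 1 and 2, from 15.5 to 30.0 FPKM. Fos was higher again, from 1.43 to 2.49, and Nfil3 lower again, from 9.43 to 7.60.

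Of 7 tested RXR heterodimer partners outside the PPAR family, 1 fell and 6 did not pass in replicates 1 and 2, with a median of -0.17. The share that fell over all tested genes was 20.9%, and 18.2% rose. The partner that fell, Rarg, a retinoic acid receptor, went from 8.65 and 10.3 FPKM to 6.50 and 6.22 (limma adjusted p = 0.0193). It went from 9.50 FPKM in control 3 to 59.2 in CIH 3, the opposite direction. Nr1h3, the lipid sensor LXRα, was at 51.5 and 57.1 FPKM in controls 1 and 2 against 57.2 and 48.6, and at 76.9 in control 3 against 6.92 in CIH 3. Thra, a thyroid hormone receptor, was at 17.8 and 22.0 FPKM against 22.8 and 23.8. In replicate 3, 1 of the 7 was at least 2-fold lower and 4 as much higher, against 11.8% and 21.8% of all tested genes.

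Among nuclear receptor coactivators, 7 of 17 tested fell, 2 rose and 8 did not pass, with a median of -0.19. For this list and the corepressors below, the shares over all tested genes were 20.9% lower and 18.2% higher. Ncoa4 fell from 33.8 and 30.6 FPKM to 10.5 and 11.3 (log2 change -1.48, limma adjusted p = 0.00094), Lpin1, also an enzyme of triglyceride synthesis, from 69.0 and 66.4 to 29.0 and 31.0, and Ncoa1, a p160 coactivator, from 24.3 and 23.5 to 12.4 and 13.8. Prmt2, an arginine methyltransferase, rose from 3.00 and 3.18 FPKM to 6.40 in both. The acetyltransferases Kat2b (23.2 and 19.6 against 17.2 and 18.9 FPKM) and Ep300 (9.49 and 9.33 against 7.58 and 9.49) did not pass. Among 16 corepressors, 2 fell, none rose and 14 did not pass, with a median of -0.09. Nrip1 (RIP140), a repressor of oxidative genes in fat, fell from 24.1 and 21.7 FPKM to 15.0 and 18.2 (limma adjusted p = 0.0341), and Lcor from 2.62 and 2.54 to 1.56 and 1.78. Ncor1, the best known of them, was at 30.4 and 29.4 FPKM against 26.3 and 30.0, and Wwtr1 (TAZ) at 40.9 and 36.3 against 33.3 and 34.8. In replicate 3, 4 of the 17 coactivators were at least 2-fold lower and 2 as much higher, with a median of 0.23. Of the 16 corepressors, 2 were as much lower and none as much higher, with a median of 0.17. Over all tested genes 11.8% were at least 2-fold lower and 21.8% as much higher, with a median of 0.26.

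Other factors that favour adipogenesis fell in 10 of 24 cases, rose in 2 and did not pass in 12, with a median of -0.14. By comparison, 20.9% of all tested genes fell and 18.2% rose. Klf15, which acts with C/EBPα in fat cells, fell from 14.1 and 13.6 FPKM to 2.42 and 2.70 (log2 change -2.06, limma adjusted p = 0.000582), and was 7.16 FPKM in control 3 and 0.264 in CIH 3. Klf9, a late factor of differentiation, fell from 65.1 and 63.0 FPKM to 25.4 and 28.6, Egr2 (Krox20), an early factor that induces Cebpb, from 6.06 and 5.74 to 2.97 and 3.00, and Nfia from 5.99 and 4.96 to 2.75 and 3.20. Srebf1, the lipogenic factor, was at 42.4 and 43.3 FPKM against 40.8 and 39.6, and Stat5a at 17.9 and 17.3 against 16.9 and 18.0, and neither passed. In replicate 3, 6 of the 24 were at least 2-fold lower and 7 as much higher, against 11.8% and 21.8% of all tested genes. The median of the 24 there was 0.26. Klf9 was lower in that pair too, from 60.2 to 17.2 FPKM. Egr2 went the other way, from 0.516 to 2.89 FPKM, and Nfia was at 108.8 FPKM in control 3 and 120.5 in CIH 3.

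Factors that hold back adipogenesis split evenly in replicates 1 and 2: of 23 tested, 7 fell, 7 rose and 9 did not pass, with a median of -0.08. Across all tested genes 20.9% fell and 18.2% rose. Bhlhe40, a repressor that hypoxia induces in many cells, fell from 35.4 and 33.2 FPKM to 4.61 and 4.95 (log2 change -2.61, limma adjusted p = 0.000392). Klf2, a repressor of the Pparg promoter, fell from 13.3 and 13.9 FPKM to 3.50 and 3.45, and Foxo1, which insulin keeps out of the nucleus, from 15.0 and 14.4 to 6.14 and 6.46. Id3, an inhibitor of basic helix-loop-helix factors, rose from 24.3 and 27.5 FPKM to 61.0 and 57.7 (1.17, 0.00154). Ctnnb1 (β-catenin), at 57.2 and 51.8 FPKM against 52.2 and 52.9, and E2f4, at 20.1 and 21.5 against 18.4 and 18.9, did not pass. In replicate 3 this list was higher in CIH, with 12 of 23 at least 2-fold higher, 1 as much lower and a median of 1.12, where 21.8% of all tested genes were at least 2-fold higher. Id3 went the other way there than in replicates 1 and 2, from 13.4 to 5.42 FPKM. So did Klf2, from 4.60 to 10.1 FPKM, and Bhlhe40, from 8.86 to 11.6, while Foxo1 was lower again, from 15.2 to 7.14.

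Genes that make, carry or break down retinoids, from which the ligands of RXR and its retinoic acid receptor partners derive, had 2 of 7 tested fall, 2 rise and 3 not pass, with a median of -0.06. That compares with 20.9% falling and 18.2% rising over all tested genes. Cyp26b1, which breaks down retinoic acid, rose from 2.34 and 2.71 FPKM to 7.70 and 9.04 (log2 change 1.41, limma adjusted p = 0.00184), and Retsat, retinol saturase, rose from 161 and 165 to 311 and 254. Dhrs3 fell from 30.1 and 32.3 FPKM to 25.7 and 21.5, and Rdh10, which makes retinaldehyde, from 3.96 and 3.71 to 2.88 and 2.99. Fabp5, at 530.3 and 545 FPKM against 556 and 480, and Dhrs9, at 30.8 and 29.1 against 31.5 and 33.8, did not pass. In replicate 3, 4 of the 7 were at least 2-fold lower and 1 as much higher, against 11.8% and 21.8% of all tested genes. The median of the 7 was -1.18. Retsat went the other way in that pair than in replicates 1 and 2, from 432 to 31.5 FPKM, and so did Rdh10, from 4.52 to 6.82.

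**Figure D5:**
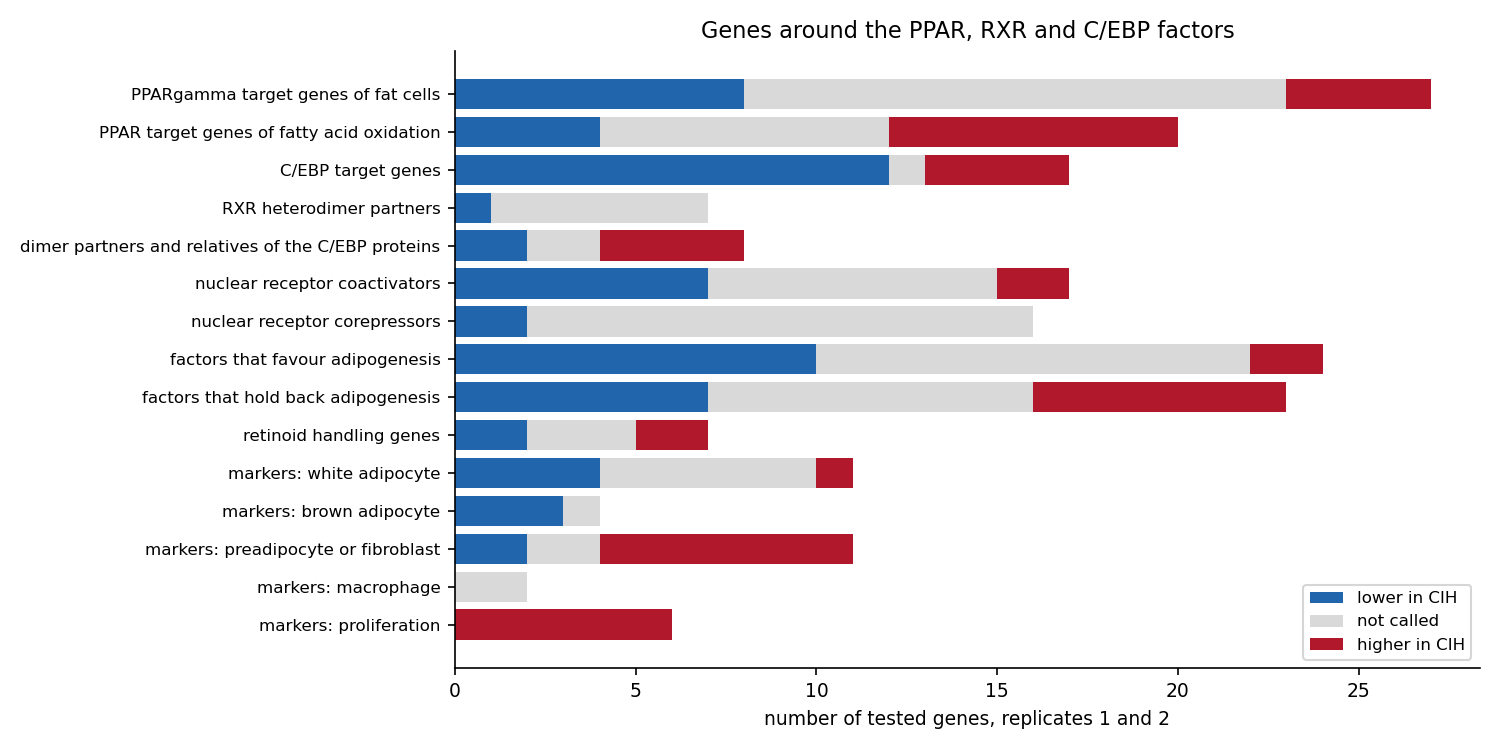
Number of tested genes of each list that were lower in CIH (blue), not called (grey) or higher (red) in replicates 1 and 2, by limma at an adjusted p under 0.05. C/EBP targets are mostly blue (12 of 17), PPARγ targets mostly grey (15 of 27), and the 6 proliferation markers all red. Of all tested genes 20.9% were lower and 18.2% higher, so most of them were not called either.

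Markers of other cells and states were read in the same libraries. Of 11 tested preadipocyte or fibroblast markers, 7 rose, 2 fell and 2 did not pass in replicates 1 and 2. For all marker lists here, the shares over all tested genes were 18.2% higher and 20.9% lower. Among the fibroblast markers that rose were Vim, the intermediate filament vimentin, from 161 and 166 to 323 and 313 FPKM, and Dlk1, the preadipocyte antigen Pref-1, from 5.59 and 5.99 to 10.0 and 9.73, while Pdgfra fell from 12.5 and 12.9 to 9.55 and 10.5. In the replicate 3 pair all 11 had a level in CIH at least 2-fold above the control, with a median of 3.03, where 21.8% of all tested genes did. All 6 proliferation markers rose, their sum going from 28.7 and 26.7 to 55.6 and 56.7 FPKM, and 5 of the 6 were at least 2-fold above control 3 in CIH 3. Of 4 tested brown adipocyte markers, Cidea, Elovl3 and Cox7a1 fell in replicates 1 and 2, and Ppargc1a did not pass. The list summed to 27.2 and 32.6 FPKM in controls 1 and 2 and to 12.6 and 9.42 in CIH 1 and 2, and to 113 in control 3 and 19.0 in CIH 3. Ucp1, which defines the brown fat cell, was at most 0.119 FPKM in any library and Prdm16 was at 0 in replicates 1 and 2, while Cox7a1, a mitochondrial subunit, was at 11.5 and 17.5 FPKM in controls 1 and 2 and 88.1 in control 3. Macrophage markers summed to at most 12.6 FPKM in any library, with Adgre1 at 0 in all 6, and endothelial markers to at most 1.02. The part of the fibroblast and proliferation markers in the lower Pparg, Cebpa, Cebpd and Cebpg was not tested.

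The genes whose values ran most like those of Pparg over the 6 libraries, by the root mean square difference of log2(FPKM + 1) centred within each kind of table, were Adtrp (0.0737), Msmo1 (0.0785), Fbxo45 (0.0824), Pank3 (0.0844) and Kank1 (0.0888), where the median over all tested genes was 0.971. Msmo1, an enzyme of cholesterol synthesis, was at 32.3 and 27.5 FPKM in controls 1 and 2, 17.1 and 14.2 in CIH 1 and 2, 112.5 in control 3 and 13.7 in CIH 3. Cebpa stood at rank 588 of likeness to Pparg. The genes most like Cebpa were Lipe (0.0331), Fam83a (0.0429), Aqp7 (0.0572), Ephx2 (0.0937) and Lgals12 (0.102), against a median of 1.35, and Pparg stood at rank 156. Lipe, hormone-sensitive lipase, was at 269 and 277 FPKM in controls 1 and 2, 210.4 and 198 in CIH 1 and 2, 536 in control 3 and 26.0 in CIH 3. The changes of the replicate 3 pair were the larger ones for both genes and so weigh most in this measure.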

How the data were processed

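Per the submitters' processing notes, the reads were processed with genome build GRCm38, featureCounts 1.5.0-p3 and DESeq 1.8.3, whose roles are not stated there, and the aligner is not given. The deposited values were read as FPKM made by the authors: in replicates 1 and 2, with 1 value per gene, the value times exon length was within 0.05 of whole fragments for 98.4% to 98.6% of genes under 50 fragments. Replicate 3 has several entries per gene, summed here, and its unit is assumed. Symbols and positions came from GENCODE M21.

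Values were taken as log2(FPKM + 1), which understates the change of low genes, and were compared by limma 3.58.1 in R 4.3.3, with a mean-variance trend and Benjamini-Hochberg adjustment, in control 1 and 2 against CIH 1 and 2, over genes in all 6 tables with a mean of at least 1 FPKM. Ppara, Rxrg and Cebpd fell outside and were read from fits with other filters. Replicate 3 has 1 library per group and no test of its own, and its gap to replicates 1 and 2 was held against the spread of those 4 libraries (interaction). Scripts ran in Python 3.11.15 and were tested on simulated data. Confidence intervals are 95%. The 10 genes, the 10 gene lists and 6 marker lists were chosen with earlier results of these data known. Genes named from each list are the 4 called with the largest change and the 2 most abundant not called. For each of Pparg and Cebpa, the 5 most similar genes are named. Alternatives covered the pseudocount, filter, scaling, trend, replicate block, each library left out and fits of all 6 libraries.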

Additional observations from a re-analysis of the deposited data

Results flagged for a closer look

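For 5 genes the gap between the change in the replicate 3 pair and that in replicates 1 and 2 passed the limma interaction test, whose spread comes from replicates 1 and 2 alone. The additional change of the replicate 3 pair, on the log2 scale, was -4.02 for Cebpa, -1.87 for Pparg, -0.92 for Rxra, -0.62 for Cebpg and -0.5 for Ppard. The sign of this difference turned with scaling by summed FPKM for Cebpg and Ppard, and Rxra then no longer passed (-0.17, adjusted p = 0.37). With 1 library per group in replicate 3, the test does not show a difference beyond that pair's own variation, and the kind of table and the replicate cannot be told apart.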

How the results depend on the processing

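Of all genes, 4292 passed in replicates 1 and 2, and 3 of the 7 tested members did. Without a filter 2584 of the 17286 genes in all 6 tables passed, and the reason for the lower number was not tested. Leaving out 1 library gave 1865 to 3682 genes and 1 to 3 members, with 1 member, Pparg, without CIH 1 or CIH 2, on fewer libraries and with the lone library of a group assumed to vary like the others. Scaling by summed FPKM gave 5 members, with Rxra and Cebpb added, and the cause was not tested. Fits of all 6 libraries gave 0 genes and 0 members with group alone (490 genes at an unadjusted p under 0.05, and 1 member), 0 and 0 with a replicate block (1123 genes, 1 member), and 63 and 0 when the kind of table was modelled (2052 genes, 3 members). In the interaction 5 members passed, and 2 with scaling by summed FPKM, which turned Ppard to 0.23, Rxrb to 0.39, Cebpb to 0.25 and Cebpg to 0.13. In the replicate 3 pair that scaling, added after seeing the data, turned Ppard to 0.020 and Rxrb to 0.22. Ppara turned to 0.0074 with the upper quartile and ranged from -0.12 to 0.024 on leaving out 1 library, and Rxrb from -0.17 to 0.070. The other fits of replicates 1 and 2 kept 2 to 4 members.

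Within replicates 1 and 2, deviations of same-numbered libraries correlated at -0.18 across genes, so the numbers were not taken to pair them. Over all 6 libraries the same-number correlations were 0.529, 0.587 and 0.581, but control 1 correlated best with CIH 2 (0.568). Those deviations are from group means that include replicate 3, from the other kind of table. Pairs of a replicate 3 library with another number lay between -0.591 and -0.553, so these correlations reflect the kind of table and cannot decide on pairing. The replicate block gave 3332 genes and 2 members, with Cebpa the call it ended. Crossed numbers, an alternative chosen after seeing the data, gave 4510 genes and 4 members. Depth limits Ppara and Rxrg, with 11 to 64 fragments per library.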

Other observations

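Of 6 genes that overlap the C/EBP genes, 3 were lower in both CIH libraries of replicates 1 and 2: Gm45091, Tmem189 and Spidr. The other 3, Gm44836, Gm45094 and Gm45095 at Cebpg, overlapped between the groups. Both CIH values lay under both controls in 38.9% of the 10976 tested genes. Gm44079, an antisense gene at Pparg that shares no exon bases with it, was higher, at 0.0 and 0.0675 FPKM in controls 1 and 2 against 0.361 and 0.689. Gm45091, an antisense gene that shares 51 exon bases with Cebpa, was at 9.10 and 8.86 FPKM in controls 1 and 2 and at 4.25 and 4.19 in CIH 1 and 2. Tmem189, which overlaps Cebpb on the opposite strand, was at 11.1 and 13.1 FPKM against 10.1 and 9.18. In replicate 3, Spidr was at 7.27 FPKM in the control and 12.0 in CIH, the reverse of its order in replicates 1 and 2.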
